A study of Mus musculus with 8 samples.

Results

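A set of 10 genes expressed in fat cells, not all of them specific to these cells, was examined in the cochlea of normal mice. The genes are Fabp4, Lpl, Thrsp, Adipoq, Plin1, Cidec, Cfd, Pck1, Scd1 and Retn. They were picked because the signals of several of them stood apart in 1 animal, so their values are a description and no test is given for them. Every probe set, a group of short array oligonucleotides that together read a transcript, was used if the array's annotation assigned it to 1 of these genes and to no other gene. That gave 17 probe sets for 8 genes, out of 34945 probe sets naming 1 gene (18193 genes). Plin1 and Cfd were not analysed here.

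The study measured total RNA from the cochlea, the hearing organ of the inner ear, in 8 mice of the inbred strain CBA/CaJ, with the ears of an animal pooled on 1 array. All 8 mice form 1 group labelled normal, so there is no contrast of conditions. Each mouse was killed with urethane at 300 mg/kg and perfused with saline to wash out blood, the outer bone was removed, and the soft tissue was kept: spiral ligament, organ of Corti and modiolus. The labels give no age, sex, dissection day or array batch, and mice are numbered here as the labels number the replicates.

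Adipocytes take up fatty acids from blood lipoproteins, make more from sugar, esterify them to glycerol and store the triglyceride in a lipid droplet coated with specialised proteins. They also secrete hormones, the adipokines, that act on appetite, insulin sensitivity and inflammation. Fat is not named among the labelled parts of the dissected tissue, and in RNA from whole tissue more cells of a type and more RNA per cell cannot be told apart.

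Promoter sequences are shown for 3 members whose signals moved together in 1 mouse and whose upstream letters matched a searched motif. RefSeq start sites on GRCm38.p6 were found for 7 of the 10 members (8 starts, since Cidec has more than 1). The 250 bases before each start were searched on both strands for TATAAA (the TATA box), CCAAT (the box bound by NF-Y), TTACGTCA (a cyclic AMP response element), TTGCNNCAA (a C/EBP motif), the DR1 repeat bound by PPAR and RXR (AGGTCA, any base, AGGTCA) and CACGTG (an E-box). The last 100 bases before the start are printed 5′ to 3′ on the gene's strand, with motif matches in capitals, for Adipoq (chr16:23146436-23146535, plus strand), Pck1 (chr2:173152973-173153072, plus strand) and Thrsp (chr7:97417551-97417650, minus strand).
Adipoq: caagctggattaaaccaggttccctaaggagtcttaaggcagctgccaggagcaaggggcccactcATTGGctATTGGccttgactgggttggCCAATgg
Pck1: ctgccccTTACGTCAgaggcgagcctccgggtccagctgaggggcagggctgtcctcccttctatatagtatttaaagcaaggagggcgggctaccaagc
Thrsp: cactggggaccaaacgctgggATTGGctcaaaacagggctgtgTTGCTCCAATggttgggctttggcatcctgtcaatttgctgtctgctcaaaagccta
Counting back from the start, Adipoq held CCAAT at positions -7 to -3 and, on the other strand, at -34 to -30 and -27 to -23. Pck1 held TTACGTCA at -93 to -86. Thrsp held CCAAT at -52 to -48 and, on the other strand, at -79 to -75, and the former overlaps a TTGCNNCAA match at -57 to -49. Over 32851 mouse promoters of the same length, 33.8% held CCAAT, 0.447% held TTACGTCA and 1.74% held TTGCNNCAA. TATAAA was present in 12.4%, CACGTG in 6.02% and the DR1 repeat in 0.0335% of them, and no member promoter searched held any of these. Neither Cidec start held a match to any of the 6 motifs, nor did Cfd, Plin1 or Retn. A match is a run of letters and not a measured binding site.

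The values are linear array signals in arbitrary units, which can be compared between mice for 1 probe set but not between probe sets. A background threshold was set on each array from 81 probe sets of olfactory, vomeronasal and bitter taste receptor genes, and it lay between 37.3 and 61.5 (48.2 in mouse 5). Of the 17 member probe sets, 8 were above it in all 8 mice, 5 in some and 4 in none, against 58.6% of the 34945 probe sets above it in all 8. On general measures of array quality mouse 5 lay inside the range of the others: the median correlation of mouse 5 with the other arrays was 0.949 (range over mice 0.947 to 0.955), its Gapdh 3′ to 5′ ratio was 1.52 (others 1.39 to 1.54), and its Actb ratio was 2.22 (others 1.86 to 2.23). The defining genes of the labelled tissue were bright in every mouse, with Coch, the gene of cochlin in the spiral ligament, at 14042 in mouse 5 and 11570 to 15616 in the others.

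Mouse 5 was the animal that stood apart. The median log2 ratio of the 13 member probe sets above background in at least 1 mouse, each against the median of the other mice, was 2.54 in mouse 5, a 5.80-fold difference. In the other 7 mice the same median ran from -0.61 (mouse 7) to 0.41 (mouse 6). Of these 13 probe sets, 10 had their highest signal in mouse 5, where 9.61% of all 26135 probe sets above background in at least 1 mouse did. The same 10, from 6 genes, were at least 2-fold above the median of the other 7 mice, against 2.69% of all probe sets. A gap ratio was also computed, the distance from the highest to the next highest mouse divided by the whole range. It passed Dixon's 95% critical value for 8 samples in mouse 5 for the same 10 probe sets, against 2.09% of all probe sets in mouse 5 and 8.73% in any mouse. The members were chosen on these values, and 3 of the 13 passed the filter on low signals through mouse 5 alone, so nothing is read from these counts.

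**Figure D1:**
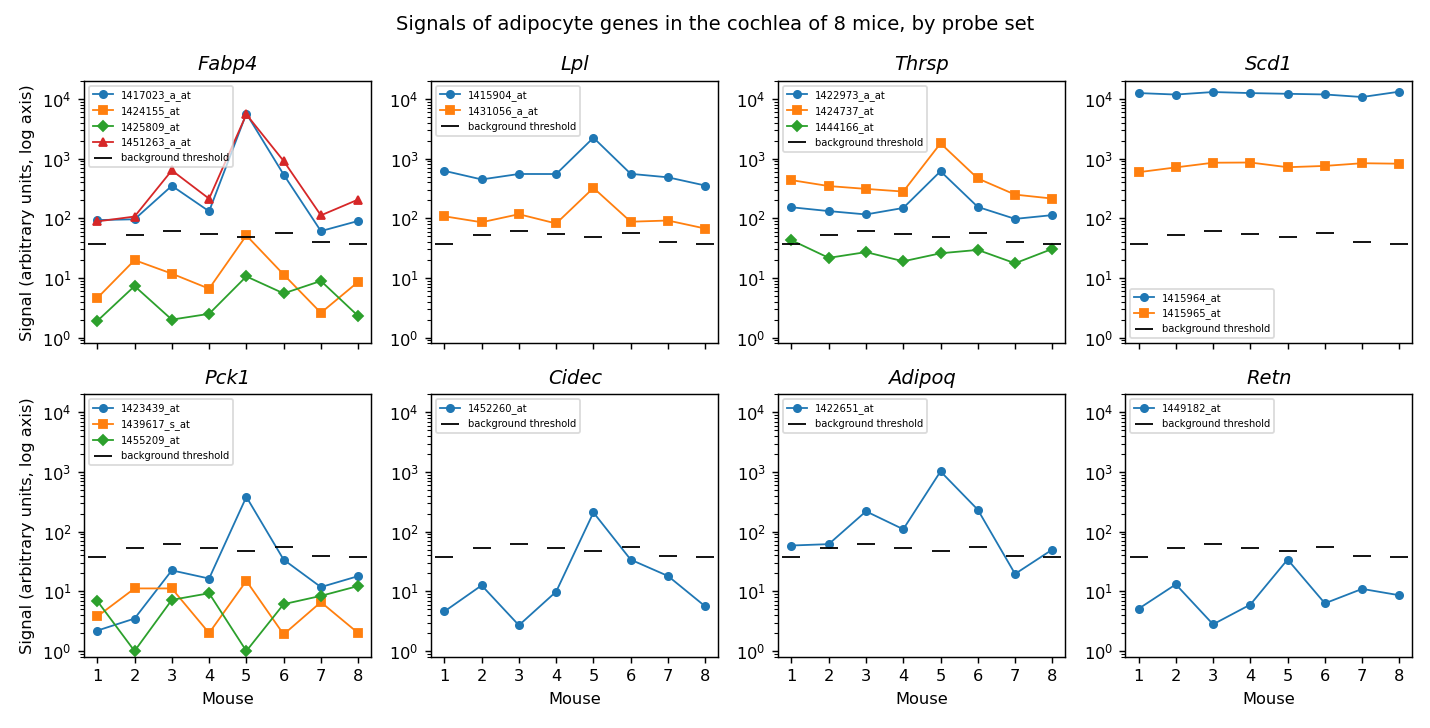
Signal of each member probe set in each of the 8 mice (log axis, arbitrary units; signals under 1 drawn at 1), with 1 panel a gene and short bars for each array's background threshold. Fabp4, Lpl, Thrsp, Pck1, Cidec and Adipoq peak in mouse 5, Scd1 is level across the mice, and Retn stays below the threshold in all of them.

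Fabp4 encodes the fatty acid binding protein that carries fatty acids inside adipocytes, and it had the largest log2 ratio of the members in mouse 5, 5.89. Probe set 1417023_a_at read 5692 in mouse 5, and in the other 7 mice its lowest signal was 61.0, its median 96.2 and its highest 541. Probe set 1451263_a_at read 5517 in mouse 5 and 88.6, 206 and 914 (lowest, median and highest) in the others. Neither range overlapped mouse 5, which stood 59.2-fold and 26.8-fold above the median of the other mice and 10.5-fold and 6.04-fold above the next highest, mouse 6. The dimmer probe set 1424155_at passed background in mouse 5 alone, at 51.6 against 2.60 to 19.9, which allows only the statement that mouse 5 was at least 1.08-fold higher. A fold written with "at least" sets mouse 5 against the mean log2 of the other arrays with each signal raised to its own array's threshold. The remaining probe set, 1425809_at, was below background in all 8 mice, with 10.6 in mouse 5 and 1.90 to 8.90 in the others. Endothelial cells and macrophages also make Fabp4. At least 2-fold higher in mouse 5 were 0 of 20 endothelial and 1 of 19 macrophage probe sets, both near the 2.69% of all probe sets, so nothing is read from these counts. The endothelial signals summed to 9066 in mouse 5, within the 8364 to 10811 of the other mice, and Cdh5, a defining endothelial gene, read 91.5 in mouse 5 and 59.4 to 135 in the others. The part of these cells in the Fabp4 values was not tested.

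Lpl encodes lipoprotein lipase, which frees fatty acids from circulating triglyceride. Its probe set 1415904_at read 2243 in mouse 5, and 354, 552 and 624 (lowest, median and highest) in the other 7 mice. Probe set 1431056_a_at read 323 in mouse 5 and 67.3, 87.6 and 117 in the others. Both were above background in every mouse and neither overlapped mouse 5, which was 4.06-fold and 3.68-fold above the median of the others. The other 7 mice lay close together, with an SD of log2 signal of 0.27 and 0.26. The next highest mouse differed between the probe sets, mouse 1 for the first and mouse 3 for the second.

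Thrsp encodes Spot 14, a regulator of lipid synthesis that follows carbohydrate feeding and thyroid hormone. Probe set 1424737_at read 1805 in mouse 5 and 214, 311 and 465 in the other 7 mice. Probe set 1422973_a_at read 615 in mouse 5 and 97.7, 132 and 155 in the others. Mouse 5 was thus 5.80-fold and 4.68-fold above the median, clear of the other mice, and mouse 6 was next in both. The third probe set, 1444166_at, did not share the pattern: it passed background only in mouse 1, at 42.9, and read 25.9 in mouse 5. The probe sets of Thrsp therefore disagreed, the dim one lying near or below the threshold.

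Scd1, the desaturase that makes monounsaturated fatty acids, went against its place in the set. Probe set 1415964_at read 12215 in mouse 5 and 10787, 12561 and 13275 (lowest, median and highest) in the other 7 mice, and 1415965_at read 718 in mouse 5 and 592, 822 and 861 in the others. Mouse 5 lay inside the range of the other mice for both. The log2 ratios were -0.04 and -0.20, and the SD of log2 signal over all 8 mice was 0.09 and 0.18, against a median of 0.23 over all probe sets. For the other genes of fatty acid synthesis, 0 of 25 probe sets (14 genes) were at least 2-fold higher in mouse 5, near the 2.69% of all probe sets. Of the 25, 7 were highest in mouse 5, among them the fatty acid synthase gene Fasn (2483 against 1641 to 2471). Only Acly 1438389_x_at was at least 2-fold lower, with a log2 ratio of -1.27. It read 13.9 in mouse 5, below background, and 9.60 to 71.3 in the others. The brighter Acly probe sets 1439459_x_at, 1451666_at and 1425326_at had log2 ratios of 0.0, 0.12 and 0.10.

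Pck1 encodes cytosolic phosphoenolpyruvate carboxykinase, which in fat supplies the glycerol backbone of triglyceride. Probe set 1423439_at was above background in mouse 5 alone, at 384 against 2.20, 16.4 and 34.0 (lowest, median and highest) in the other 7 mice, so mouse 5 was at least 8.08-fold higher. Mouse 6 was the highest of the rest, though below its threshold of 56.1. The other Pck1 probe sets, 1439617_s_at and 1455209_at, were below background in all mice, with 15 and 0.8 in mouse 5, so 1 of 3 probe sets carried the signal.

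Cidec encodes a lipid droplet protein that lets droplets fuse into the large vacuole of white adipocytes. Its only probe set, 1452260_at, read 210.0 in mouse 5 and 2.70, 9.90 and 34.0 in the other 7 mice, all 7 below background. Mouse 5 was at least 4.41-fold higher. For Cidec, Pck1 1423439_at and Fabp4 1424155_at mouse 5 was the only mouse above background, a state found in 1.21% of the 26135 probe sets.

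Adipoq encodes adiponectin, a hormone made almost only by adipocytes, and so bears most directly on the name of the set. It was above background in 7 of the 8 mice. Its signal was 1026 in mouse 5, and 19.6, 61.9 and 234 in the other 7 mice, with no overlap and a 16.6-fold difference from the median. The ranks below mouse 5 were mouse 6 (234), mouse 3 (219.8) and mouse 4 (110.0), while mouse 7 alone fell under its threshold. Retn, the gene of the adipokine resistin, read 34.2 in mouse 5 and 2.80 to 13.1 in the others, below background throughout. Lep, the leptin gene and likewise a defining adipokine, read 44.6 in mouse 5 and 2.70 to 18.8 in the others, again below background in every mouse.

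With mouse 5 left out, the spread among the remaining animals depended on the gene. The median SD of log2 signal over the 13 probe sets was 0.96 with all 8 mice and 0.45 with the other 7, against 0.23 and 0.23 over all probe sets. Over the 10 probe sets above background in at least 1 of those 7 mice it was 0.34, against 0.23. The median hides a split by gene: the SD over the 7 mice was 1.16 to 1.45 for Adipoq, Cidec, Pck1 1423439_at and the 2 bright Fabp4 probe sets, and 0.26 to 0.41 for the Lpl probe sets and the 2 bright Thrsp probe sets. Cidec and Pck1 were below background in those 7 mice, where an SD reflects low signals.

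Mouse 6 most often came next. It was the next highest in 7 of the 10 probe sets that peaked in mouse 5, and mouse 3 in 1, but for Cidec and Pck1 1423439_at, among the 7, and for Fabp4 1424155_at this is an order among signals below background. Of the 7 probe sets above background in another mouse, mouse 6 was next in 5, mouse 3 in 1 and mouse 1 in 1. Over the 329 such probe sets of the array mouse 6 was next and above background in 14.0% and mouse 3 in 19.5%. The 5 come from Fabp4, Thrsp and Adipoq alone. For Thrsp mouse 1 was close to mouse 6, at 153 against 155 and 436 against 465. Over all 583 probe sets that were highest and at least 2-fold up in mouse 5, mouse 6 was next in 17.7% and mouse 3 in 23.5%. With mouse 5 left out, 5 of 13 member probe sets in mouse 6 were at least 2-fold above the median of the other 6. The share over all probe sets was 1.84%. In mouse 3 the count was 3 of 13, against 1.58%. All of these are among the 10 member probe sets up in mouse 5, which makes 5 of 10 in mouse 6 and 3 of 10 in mouse 3. Over the 703 probe sets at least 2-fold up in mouse 5 the shares were 20.9% in mouse 6 and 24.8% in mouse 3. The 3 of 10 is near its share, so nothing is read from it. Cidec and Pck1 1423439_at, both at 34.0 and below background in mouse 6, are among its 5. Counting only signals above background in the mouse itself, 3 of the 10 member probe sets above background without mouse 5 were at least 2-fold higher in mouse 6 (1.45% of 25820 probe sets) and 3 in mouse 3 (1.12%). The bright Fabp4 probe sets carried this, with 541 and 914 in mouse 6, 350.3 and 635 in mouse 3, and at most 131 and 213 in the remaining 5 mice, and Adipoq repeated it. Lpl did not: in mouse 6 its log2 ratios to the other 6 mice were 0.10 and -0.02. Genes of red blood cell precursors were also high in mice 3 and 6, where the median deviation of 10 erythroid probe sets from the 8-mouse median was 1.10 and 1.14 on the log2 scale, and in mouse 5 it was 0.41. Their summed signal was 13610 in mouse 3, 14887 in mouse 6, 9252 in mouse 5 and 1773 to 9304 in the rest, and that of 13 neutrophil probe sets was 30370, 27770, 21097 and 2131 to 18788. Bone genes were higher in both mice too, at 0.49 and 0.49 over 14 probe sets. The part of blood-forming cells or bone in the Fabp4 and Adipoq values of these 2 mice was not tested.

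**Figure D2:**
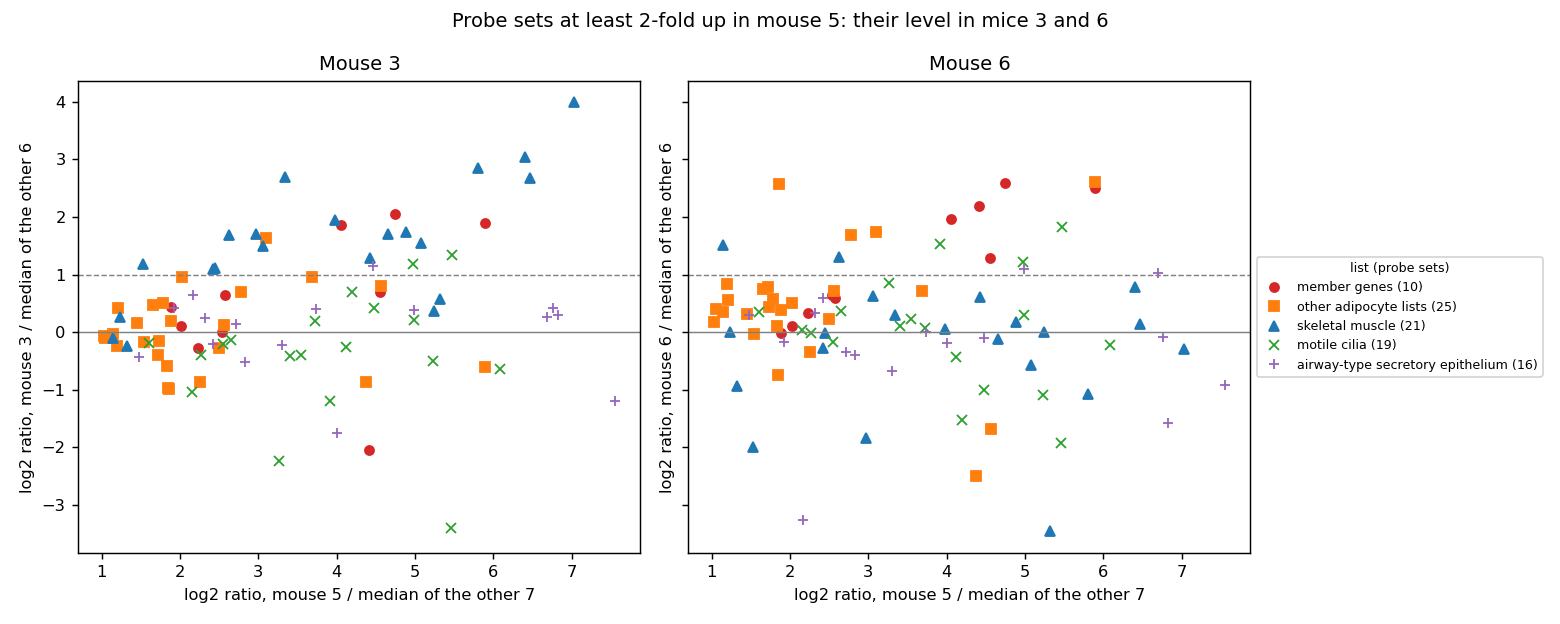
For every probe set at least 2-fold higher in mouse 5 in 5 gene lists, the log2 ratio of mouse 5 to the median of the other 7 mice (horizontal) is set against the log2 ratio of mouse 3 (left) or mouse 6 (right) to the median of the remaining 6, mouse 5 left out; the dashed line marks 2-fold. Of the skeletal muscle points 16 of 21 lie above the line in mouse 3, and of the member points 5 of 10, from Fabp4, Adipoq, Cidec and Pck1, do so in mouse 6.

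Other genes of the fat cell were read from 8 lists of 113 genes, of which 105 had a probe set and 97 (166 probe sets) were above background in at least 1 mouse. In mouse 5, 25 of the 166 probe sets (18 genes) were at least 2-fold above the median of the other 7 mice and 2 at least 2-fold below, which is 15.1% higher against 2.69% of all probe sets. The 2 lower ones, of Acly and Ebf1, read below background in mouse 5. Of the 166, 49 (29.5%) had their highest signal in mouse 5, against 9.61% of all probe sets. Their median log2 ratio was 0.09, beside -0.01 for all probe sets, so most were not 2-fold higher in mouse 5. By list, the count was 6 of 23 for uptake and triglyceride synthesis, 5 of 26 for insulin response and surface genes, 4 of 12 for adipokines and 4 of 20 for the lipid droplet. It was 3 of 17 for precursors and stroma, 2 of 23 for transcription factors, 1 of 20 for brown fat and 0 of 25 for fatty acid synthesis. Mouse 5 alone was above background for 3 of the 20 lipid droplet, 1 of the 23 uptake and 1 of the 26 insulin response probe sets. These passed the filter on low signals through mouse 5, and their ratios are set against signals below background.

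Among genes of uptake and esterification, Cd36, a fatty acid transporter, was higher in all 3 of its probe sets, at 278, 364 and 210.0 in mouse 5 against at most 74.6, 53.5 and 91.1 in the other mice. The probe set at 364 was above background in mouse 5 alone. Dgat2, which adds the last acyl chain of triglyceride, read 560.5 against 119.5 to 195, and Gpd1, which makes glycerol phosphate, read 681 against 162 to 337 in its brightest probe set. Other Gpd1 probe sets did not reach 2-fold: 1416204_at read 131 against 78.2 to 116, and 1439396_x_at read 45.8, below background, against 29.9 to 66.3. Slc2a4, the insulin-responsive glucose transporter, read 371 against 84.2 to 156. Skeletal muscle also expresses Lpl, Cd36, Gpd1 and Slc2a4, and its own genes were high in mouse 5 as given further on.

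Pparg, the nuclear receptor that drives adipocyte differentiation, read 171 in mouse 5 and 11.6 to 72.1 in the others, with 4 of the 8 mice above background. Rxra 1430497_at also passed 2-fold, but it read 22.5 in mouse 5, below background, and peaked at 47.6 in mouse 8. Cebpa, a partner factor of Pparg, read 1311 in mouse 5 and 778 to 986 in the others, a log2 ratio of 0.57 that is above all other mice but under 2-fold. Adig, the adipogenin gene, read 326 against 97.9 to 149. Trarg1, a trafficking regulator of the glucose transporter, read 159 against 19.2 to 64.8, and Acvr1c, an activin receptor of fat, read 148 against 54.5 to 92.4.

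Lipid droplet genes were divided. Cidea, a droplet protein of brown fat that is also made by sebaceous glands, read 1480 in mouse 5 against 210.5 to 504. Plin5 1441915_s_at (239) and Hcar2 (85.2), the nicotinic acid receptor that restrains lipolysis, were above background in mouse 5 alone. The droplet coat gene Plin4 read 364 against 155 to 233, and Lipe, hormone-sensitive lipase, read 114 against 46.7 to 94.9; both were highest in mouse 5 and under 2-fold. Of the secreted proteins, Hp (haptoglobin) read 701 against 13.3 to 236, Angptl4, an inhibitor of lipoprotein lipase, read 281 against 134 to 156, and Nrg4 read 182 against 13.5 to 69.3.

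Ucp1, the uncoupling protein that defines brown and beige fat, read 2378 in mouse 5, 236 in mouse 6 and at most 60.7 in the other 6 mice. No other gene of the brown fat list was at least 2-fold higher (1 of 20 probe sets in all, beside 2.69% of all probe sets). Cidea, given above as a droplet protein of brown fat and past 2-fold, was counted on the lipid droplet list. Dio2 read 2236 in mouse 5 and 1784 to 2584 in the others in its brightest probe set, and Cox8b read 3174 against 2267 to 3778, each inside the range of the other mice; both are bright in this tissue throughout. Elovl3, a further defining gene of brown fat, was below background in every mouse, at 29.0 in mouse 5. In the list of fat precursors and stroma, Col3a1 (1650 against 407 to 724) and Pi16 (113 against 39.7 to 71.8) were the genes past 2-fold.

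**Figure D3:**
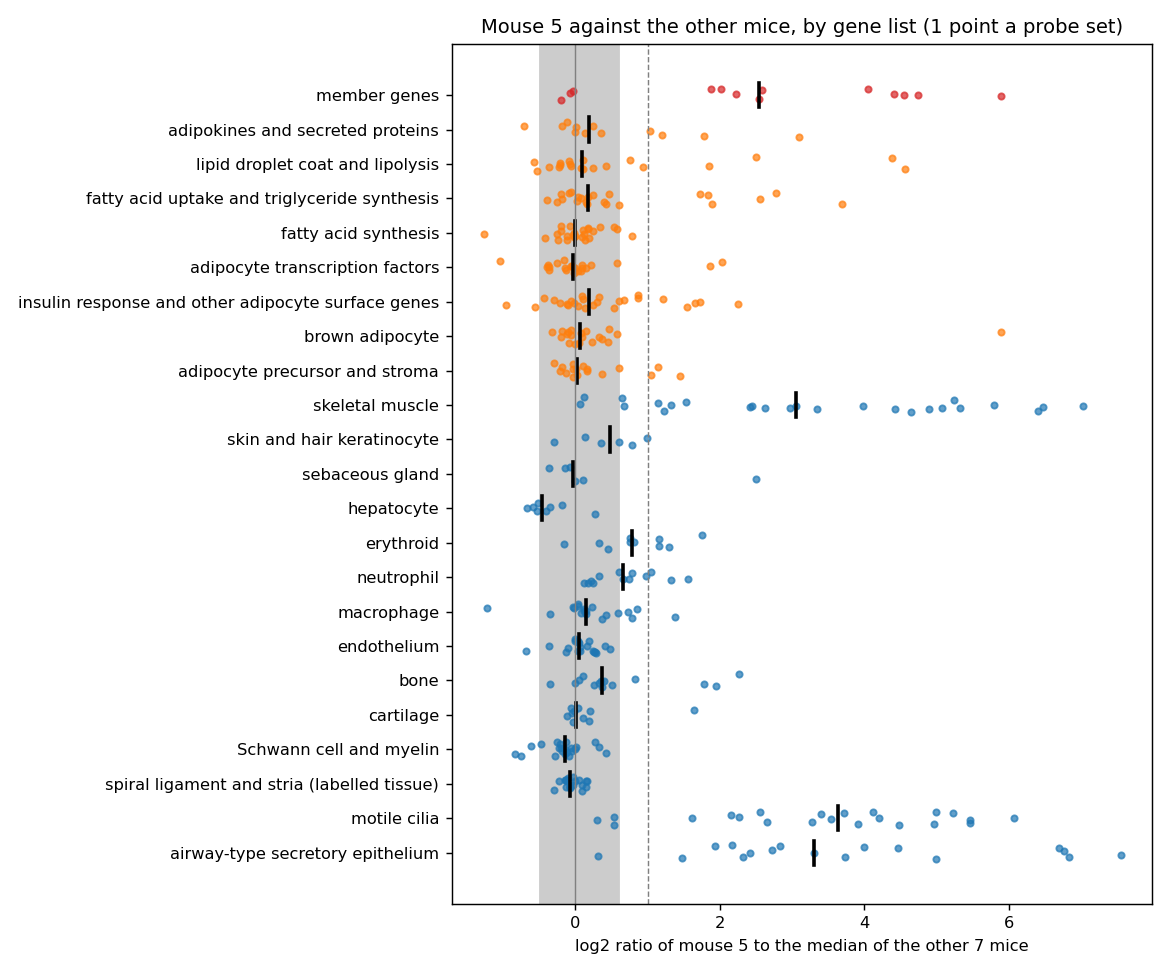
Log2 ratio of mouse 5 to the median of the other 7 mice for every probe set above background in at least 1 mouse, by gene list, 1 point a probe set; black bars are list medians, the grey band spans the 5th to 95th percentile of all 26135 probe sets (-0.49 to 0.60) and the dashed line marks 2-fold. Members, skeletal muscle, motile cilia and airway-type secretory genes lie mostly to the right of the band, while the other adipocyte lists have medians near 0 with some points far to the right.

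Genes of other tissues were higher in mouse 5 as well. Mouse 5 had 703 probe sets at least 2-fold above the median of the other 7 mice, where each other mouse had 90 to 416. Of the 703, 583 had their highest signal in mouse 5. At least 2-fold below that median were 241 probe sets in mouse 5 and 377 (mouse 3) to 1017 (mouse 1) in the others. Of 25 skeletal muscle probe sets above background, 21 (16 genes) were at least 2-fold higher in mouse 5, with a median log2 ratio of 3.06. Their summed signal was 27615 in mouse 5 and 5685 to 9870 in the others. Mylpf, a fast muscle myosin light chain, read 3034 in mouse 5 against 62.3 to 263, and the defining genes Ckm (132) and Acta1 (822) were above background in mouse 5 alone. By rank, with signals below background included, muscle and member genes differed in which mouse came next. Mouse 3 was next in 17 of 20 muscle probe sets that peaked in mouse 5, mouse 6 in none. Among the members mouse 6 was next in 7 of 10. Among the 25 other adipocyte probe sets past 2-fold it was mouse 6 in 11 and mouse 3 in 2. Some of these orders lie among signals below background. With mouse 5 left out, 3 member probe sets were above background and at least 2-fold higher in mouse 6, and 3 in mouse 3. No such count was made for muscle, so whether muscle and members differ above background was not tested. Of the 25 muscle probe sets, 7 were above background in all 8 mice and 4 in mouse 5 alone.

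Lists of motile cilia and of airway-type secretory epithelium, chosen after values were seen, were at least 2-fold higher in 19 of 22 and 16 of 17 probe sets, with median log2 ratios of 3.63 and 3.30. Mouse 5 alone was above background for 12 of the 22 and 8 of the 17, which passed the filter through it, and their ratios are set against signals below background. Their summed signals were 14761 in mouse 5 against 1835 to 1925, and 32180 against 2651 to 9013. Foxj1, the factor that switches on motile cilia, read 131 against 3.30 to 19.5. Sec14l3, placed on the airway-type list, read 2066 to 2143 over its 3 probe sets against at most 39.7. In skin (6 probe sets), hepatocyte (8), endothelium (20) and Schwann cell (22) lists no probe set was at least 2-fold higher, near the 2.69% of all probe sets in lists of these sizes, and the hepatocyte marker Alb and the sebaceous marker Mc5r were below background in every mouse. Beside the same 2.69%, the counts were 4 of 10 for erythroid, 3 of 13 for neutrophil, 3 of 14 for bone, 1 of 19 for macrophage, 1 of 10 for cartilage and 1 of 6 for sebaceous gland, the last being Cidea. The erythroid, neutrophil and bone counts were not particular to mouse 5. With mouse 5 left out, 4, 3 and 3 of these probe sets were also at least 2-fold higher in mouse 3, and 4, 2 and 3 in mouse 6. Mouse 5 was highest in 0 of 10 erythroid, 2 of 13 neutrophil and 4 of 14 bone probe sets. Of the 20 probe sets of spiral ligament and stria genes none was past 2-fold, the median log2 ratio was -0.08, and Slc26a4 and Otos read 9907 and 11407 in mouse 5, each inside the range of the other mice (8516 to 11709 and 9581 to 13623). The part of these tissues in the members' values was not tested, and since each mouse has 1 array, animal, dissection and assay cannot be told apart.

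**Figure D4:**
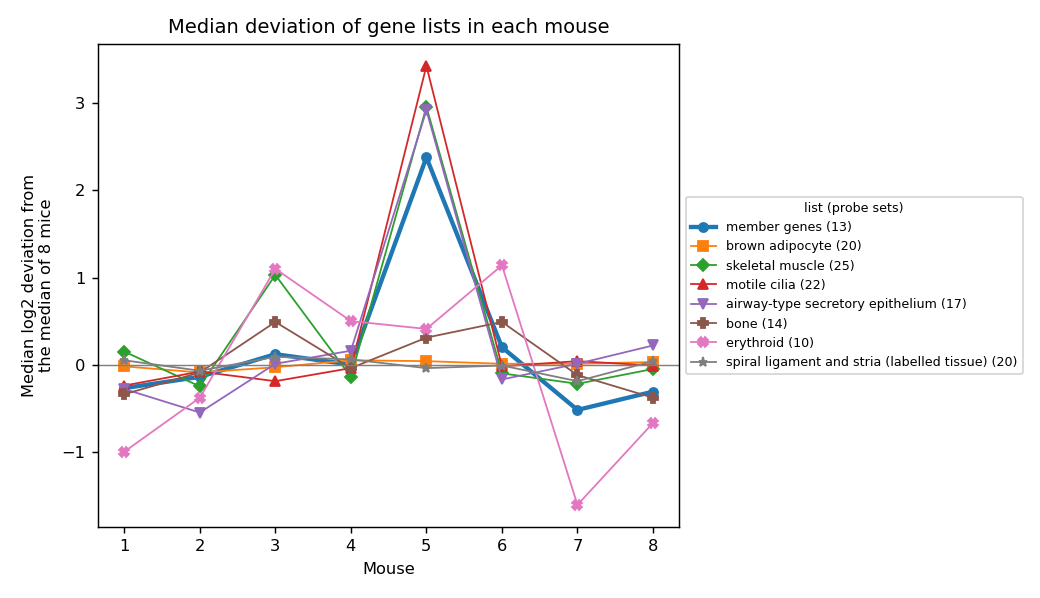
Median log2 deviation of each list from the 8-mouse median, by mouse, for the members and 7 other lists. Members, skeletal muscle, motile cilia and airway-type secretory genes peak in mouse 5 (2.38, 2.96, 3.43 and 2.92); muscle has a smaller peak in mouse 3 (1.03), erythroid genes are high in mice 3 and 6, and the cochlear list stays within 0.19 of 0.

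The genes most like the members were sought among 138 probe sets (129 genes) above background in all mice, at least 2-fold up in mouse 5 and outside the set. Likeness was Pearson's r over the 8 mice with the mean standardised profile of 7 member genes, each read by its brightest probe set, so it rests largely on mouse 5 by construction and r over the other 7 mice is given beside it. Fmo1, a flavin monooxygenase, was first (r = 0.980; 0.88 without mouse 5), at 528 in mouse 5 against 74.4 to 135. Cd55, a complement regulator, followed (0.977; 0.88), then Acvr1c (0.968; 0.90), Oit1 (0.964; 0.77) and Dgat2 (0.962; 0.76). Acvr1c, Dgat2 and Col3a1 of the 15 nearest were on the adipocyte lists, and Eno3 (0.920; 0.47) was on the muscle list. The tropomyosin genes Tpm1 and Tpm2 stood at 0.955 and 0.942, and Ubxn10 and Cep126 at 0.932 and 0.925 with 0.53 and 0.45 once mouse 5 was left out. Myb (0.933; 0.93) kept its r without mouse 5, with 517 in mouse 3, 485 in mouse 6 and 1156 in mouse 5. The remaining genes were 2010204K13Rik (0.962; 0.76), Smoc2 (0.924; 0.74) and Kcnk3 (0.918; 0.63).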

How the data were processed

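Per the labels' protocols, RNA extracted with TRIZOL and cleaned on a column was amplified with Nugen's Ovation kit and labelled with biotin. The deposited signals are intensities on a linear scale, which the authors made with MAS5 per the submitters' processing notes (version not given in the sources used here). All arrays had been scaled alike: leaving out the top and bottom 2% of intensities, each averaged 500.0. No 2 arrays were identical, and detection calls were not used. Of 45101 probe sets, 34945 named 1 gene in the platform annotation (control probe sets left out), 932 several and 9211 none; 34741 matched a current Entrez identifier and 0 symbols changed.

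Signals were read as log2, with those under 1 set to 1. As threshold, each array took the 95th percentile of 81 receptor probe sets (73 genes). The number of arrays limits the precision. Members, gene lists and measures were chosen with earlier results of these data known, and with 1 group no test was made. Genes named are the members, the list genes at least 2-fold up in mouse 5, some of the brightest and dimmest list genes, and the 15 nearest genes; some were left out for room. Genes of the cilia and airway lists, Cebpa, Plin4, Lipe, Dio2, Cox8b, Elovl3, Lep, Acly and Cdh5 were picked with their values in view. The 2-fold and gap measures were tested on simulated data. Alternatives were quantile normalization, median scaling, log2 of the signal plus 32, other filters, thresholds and probe set choices, and each mouse left out. Sequences are from RefSeq. Scripts ran in Python 3.11.15 with pandas 2.3.3, numpy 2.4.6, matplotlib 3.10.9 and scipy 1.17.1.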

Additional observations from a re-analysis of the deposited data

Results flagged for a closer look

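A probe set of a member or of another gene chosen for naming is listed here when the distance from its highest mouse to the next highest, divided by the range over the 8 mice, passed Dixon's 95% critical value for 8 samples. For normally distributed values chance passes about 1 group in 20 when both ends are counted. Only the high end was read here, on linear signals that need not be normal, so that rate is no benchmark. Over all 26135 probe sets 8.73% passed in some mouse and 2.09% in mouse 5. Mouse 1 accounted for 1181 such probe sets, mouse 5 for 547 and each other mouse for 43 to 134.

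In mouse 5 the ratio of the members was 0.915, 0.647 and 0.848 for Fabp4, 0.857 and 0.804 for Lpl, 0.890 and 0.843 for Thrsp, 0.917 for Pck1, 0.849 for Cidec and 0.787 for Adipoq, values given by probe set. Among the other adipocyte genes it was 0.677 for Hp, 0.850 for Angptl4, 0.668 for Nrg4, 0.769 for Cidea, 0.837 for Hcar2, 0.675 and 0.916 for Plin5, 0.628 for Plin4, 0.789, 0.896 and 0.595 for Cd36, 0.532 and 0.828 for Dgat2, 0.664 for Gpd1, 0.750 for Slc2a4, 0.777 for Adig, 0.593 for Acvr1c, 0.674 for Trarg1, 0.619 for Pparg, 0.609 for Cebpa, 0.913 for Ucp1, 0.745 and 0.659 for Col3a1 and 0.560 for Pi16. Of the genes nearest to the members it was 0.865 for Fmo1, 0.760 and 0.737 for Cd55, 0.855 for Oit1, 0.830 for 2010204K13Rik, 0.837 for Tpm1, 0.553 and 0.779 for Tpm2, 0.628 for Myb, 0.944 and 0.871 for Ubxn10, 0.909 for Cep126, 0.529 for Smoc2 and 0.675 for Kcnk3. For genes of muscle, cilia and secretory epithelium it was 0.933 for Mylpf, 0.929 for Tnnt3, 0.967 for Acta1, 0.978 for Ckm, 0.806 for Eno3, 0.873 for Foxj1, 0.991, 0.986 and 0.984 for Sec14l3 and 0.969 for Reg3g. Over all 166 probe sets of the other adipocyte lists 27 passed in mouse 5 and 11 in another mouse, 8 of them in mouse 1, and not all are listed. Among those of mouse 1 is Srebf1, a regulator of lipid synthesis, which passed in mouse 1 with a ratio of 0.659 and signals of 4012 in mouse 1, 2716 in mouse 5 and 2250 to 2851 in the remaining mice.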

How the results depend on the processing

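Mouse 5 was the outlying mouse in 17 of 18 settings, the exception being the one that left it out. The members were picked for standing apart in 1 animal, so this was largely fixed in advance. The setting that only left out the brown fat and the precursor and stroma lists could not change it. The counts of members highest, at least 2-fold up and with a large gap ratio in mouse 5 (10 of 13 each) were 6 of 8 with probe sets above background in all 8 mice and 6 of 7 with 1 probe set a gene. The median log2 ratio of 2.54 became 4.05 with 1 probe set a gene and 1.98 with log2 of the signal plus 32. The other adipocyte probe sets past 2-fold, 25 at first, numbered 9 when restricted to those above background in all 8 mice. The members above background in all 8 mice were 5 rather than 8 with the 99th percentile as threshold. Leaving out each mouse in turn gave member counts of 0 to 10, a median log2 ratio of -0.46 to 2.61, 2 to 25 other adipocyte probe sets and a spread among the other mice of 0.35 to 0.69. The low ends come from leaving out mouse 5, where mouse 7 took its place with 0 member probe sets past any rule, a median of -0.46 and 2 other adipocyte probe sets. Of 194 single member values 191 stayed within 1 SD of that probe set's log2 signal over the other 7 mice. The other 3 moved, all with log2 of the signal plus 32 (Fabp4 1424155_at to 1.04, Lpl 1431056_a_at to 1.57 and Cidec to 2.53). Other filters, thresholds and probe set choices cannot alter a single ratio, so those values were fixed in advance. Reversal was counted only for log2 ratios of at least 1 in size, and none occurred. Smaller ratios did change sign: with quantile normalization Scd1 1415964_at went from -0.04 to 0.03 and Thrsp 1444166_at from -0.07 to 0.04. No paired analysis was possible because the labels hold 1 group.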
